A study of Homo sapiens with 6 samples.

Results

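Most of the genes described here encode proteins of ribosome assembly in the nucleolus. These are subunits of RNA polymerase I, core proteins of small nucleolar ribonucleoprotein particles (snoRNPs), and factors that cut, fold and package ribosomal RNA. The list holds 54 named genes out of 55765 in the deposited table, and includes NME1, which does not encode a ribosome assembly factor. They were listed by function after NOLC1, which encodes a nucleolar phosphoprotein, had been seen to rise in siEHMT2 libraries. The list was therefore drawn up with results of the same comparison in view, and differences between siEHMT2 and siNC libraries are given as descriptions of the members. Counts of members past a threshold are descriptions too, and support nothing.

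RNA sequencing was done on SK-NEP-1, a cultured line that carries the label of a kidney Wilms tumor. The libraries fall into 3 siEHMT2 libraries, from cells treated to knock down EHMT2, and 3 siNC libraries, from cells treated with the control siNC. By the sample titles both groups share the cell line, while the cell line label numbers the line differently between samples. The labels give no dose, time or number of cultures. EHMT2 encodes a methyltransferase for lysine 9 of histone H3. The labels do not say whether replicates were grown as separate cultures, so SDs and p-values measure only the spread between these libraries, which may be technical.

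Ribosome assembly begins when RNA polymerase I copies the ribosomal DNA into a long precursor RNA. Box C/D snoRNPs guide ribose methylation and box H/ACA snoRNPs guide pseudouridylation of that precursor, while assembly factors release the small and the large subunit. The process is known to scale with growth, and MYC, which binds the E-box sequence CACGTG together with MAX, is a known activator of many of its genes.

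Values were FPKM per gene, read fragments scaled by transcript length and library size, so levels of different genes can be set side by side per length. The test covered 12859 genes whose 6 libraries averaged 1 FPKM or more. All 54 members passed this filter. FPKM summed to between 244702 and 272271 per library, and the absolute depth is unknown. EHMT2 held 7.61, 8.26 and 16.2 FPKM in the siEHMT2 libraries, against 27.5, 27.2 and 22.7 FPKM in the siNC libraries. The groups did not overlap, and within siEHMT2 the level was highest in replicate 3. Its log2 fold change was −1.27 ± 0.24 (SE, n = 3 per group), with a limma adjusted p of 0.0609. Among nephron progenitor and Wilms tumor markers, SIX2, PAX2, PAX8 and LHX1 were below 1 FPKM in every library. WT1 lay between 0.895 and 1.56 FPKM, and CITED1, EYA1 and SALL1 did not exceed 3.63 FPKM. The 8 Ewing sarcoma markers spread widely. LIPI lay between 0.461 and 1.15 FPKM, GLI1 between 3.09 and 6.91 FPKM and NR0B1 between 7.09 and 11.7 FPKM. BCL11B, STEAP1 and PRKCB lay between 13.4 and 30.7 FPKM, NKX2-2 between 103 and 134 FPKM, and CCND1 between 213 and 388 FPKM. These bulk values cannot tell a change in the mix of cells from a change in RNA per cell.

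The sequences at the start of these genes were compared first, because the list was drawn up by function and not by sequence. It is still not independent of the E-box, since MYC is a known activator of many genes of this process. NME1, too, is a known MYC target. Genes of similar level were not compared separately. RefSeq promoter windows (GRCh38.p14), 250 bases before to 50 after the gene start, were matched for 44 of the 54 members. Entries were missing for NOLC1, TCOF1, POLR1E, NOP58, RRP12, DDX52, RRP1B, BOP1, DDX18 and RRS1. The palindromic E-box CACGTG occurred in 17 of the 44 windows (38.6%), against 8.77% of 27305 genes with an entry. These 17 members were BYSL, DDX21, FBL, GAR1, GNL2, GNL3, MRTO4, MYBBP1A, NAT10, NME1, NOP10, NOP14, NOP2, PES1, RRP9, UTP20 and WDR43. A gene with several windows was counted once, when any window held the motif. In all 17 members a match began within 50 bases of the start. This distance was chosen after the matches were seen, and it held for 39.98% of the 2396 genes with the motif. The members held 18 matches in all, of which 6 began before the start and 12 after it. The farthest downstream match began 35 bases after the start. NOP10 carried a pair of matches, one of them 170 bases before the start.

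The 100 bases before the start of 4 members are shown because each holds the E-box close to the start, while their fold changes had different signs. Capitals mark the E-box, and each sequence reads 5′ to 3′ on the gene's strand.
NOP10, chr15:34343137-34343236, minus strand: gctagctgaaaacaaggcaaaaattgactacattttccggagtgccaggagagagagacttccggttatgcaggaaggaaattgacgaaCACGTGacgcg
DDX21, chr10:68956547-68956646, plus strand: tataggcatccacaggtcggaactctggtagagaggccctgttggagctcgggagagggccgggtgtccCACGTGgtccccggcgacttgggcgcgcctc
UTP20, chr12:101280005-101280104, plus strand: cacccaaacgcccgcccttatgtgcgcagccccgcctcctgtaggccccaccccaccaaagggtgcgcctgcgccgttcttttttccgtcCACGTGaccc
NAT10, chr11:34105529-34105628, plus strand: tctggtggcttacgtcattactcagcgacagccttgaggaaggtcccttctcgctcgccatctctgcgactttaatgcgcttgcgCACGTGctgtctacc
The E-box began 11 bases before the start in NOP10, 31 in DDX21, 10 in UTP20 and 15 in NAT10. Their log2 fold changes, siEHMT2 minus siNC on the log2(FPKM + 1) scale, were 0.26 ± 0.16, 0.11 ± 0.14, −0.10 ± 0.16 and −0.23 ± 0.11 (SE, n = 3 per group). A motif match describes letters and not binding.

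Other promoter motifs were searched on both strands. The ETS-type sequence CCGGAAGT stood in 9 of 44 member windows (20.5%), against 4.95% of all genes with an entry. The TATA sequence TATAAA stood in 1 (2.27%), against 13.99%. CCAAT stood in 15 (34.1%), against 39.7%. The NRF1 site stood in 4 (9.09%), against 1.52%. Of the 17 members with CACGTG, 11 had a log2 fold change above 0, with a median of 0.09 and a range of −0.23 to 0.50. Of the 27 without it, 16 were above 0, with a median of 0.06 and a range of −0.32 to 0.39. The medians of members with and without the motif thus lay close together, and no test was made of their difference.

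The members were abundant transcripts. Their median level in siNC libraries was 24.3 FPKM, with members from 4.23 to 258 FPKM, against a median of 6.64 FPKM over all tested genes. NPM1, the nucleolar chaperone nucleophosmin, stood above 99.4% of tested genes, and NCL, which encodes nucleolin, above 99.0%. At the low end were UTP15, a subunit of the small subunit processome, and RRP8, a methyltransferase-like nucleolar protein. They stood above 35.4% and 36.9% of tested genes.

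Between siEHMT2 and siNC libraries, 33 of the 54 members had a log2 fold change above 0 (61.1%) and 21 below 0, whereas 52.4% of all tested genes were above 0. The median log2 fold change was 0.08 over the members and 0.01 over all tested genes. The members' median was 0.02 after GC correction, 0.03 with libraries scaled to the same sum, 0.05 without siNC replicate 2 and 0.14 with array weights. The quartiles were −0.08 and 0.21 over the members and −0.14 and 0.17 over all tested genes. At a limma adjusted p under 0.05, 1 of 54 members was called, the gene NOLC1 from which the list was built, against 0.552% of tested genes (71 of 12859). It was called as higher, as were 0.342% of tested genes, while 0 members and 0.21% of tested genes were called as lower. Nothing is read from these counts, because the list was built on this comparison. The count of members called was 1 without siEHMT2 replicate 3, and 0 without siEHMT2 replicate 1 or 2 or any 1 of the siNC libraries. At an unadjusted p under 0.05, 11 members (20.4%) and 18.8% of tested genes passed. Of these members 9 were higher (16.7%, against 10.7% of tested genes) and 2 lower (3.70%, against 8.03%). Separate groups were found in 10 members with higher siEHMT2 values (18.5%, against 14.6% of tested genes) and in 3 with lower values (5.56%, against 11.7%).

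**Figure D1:**
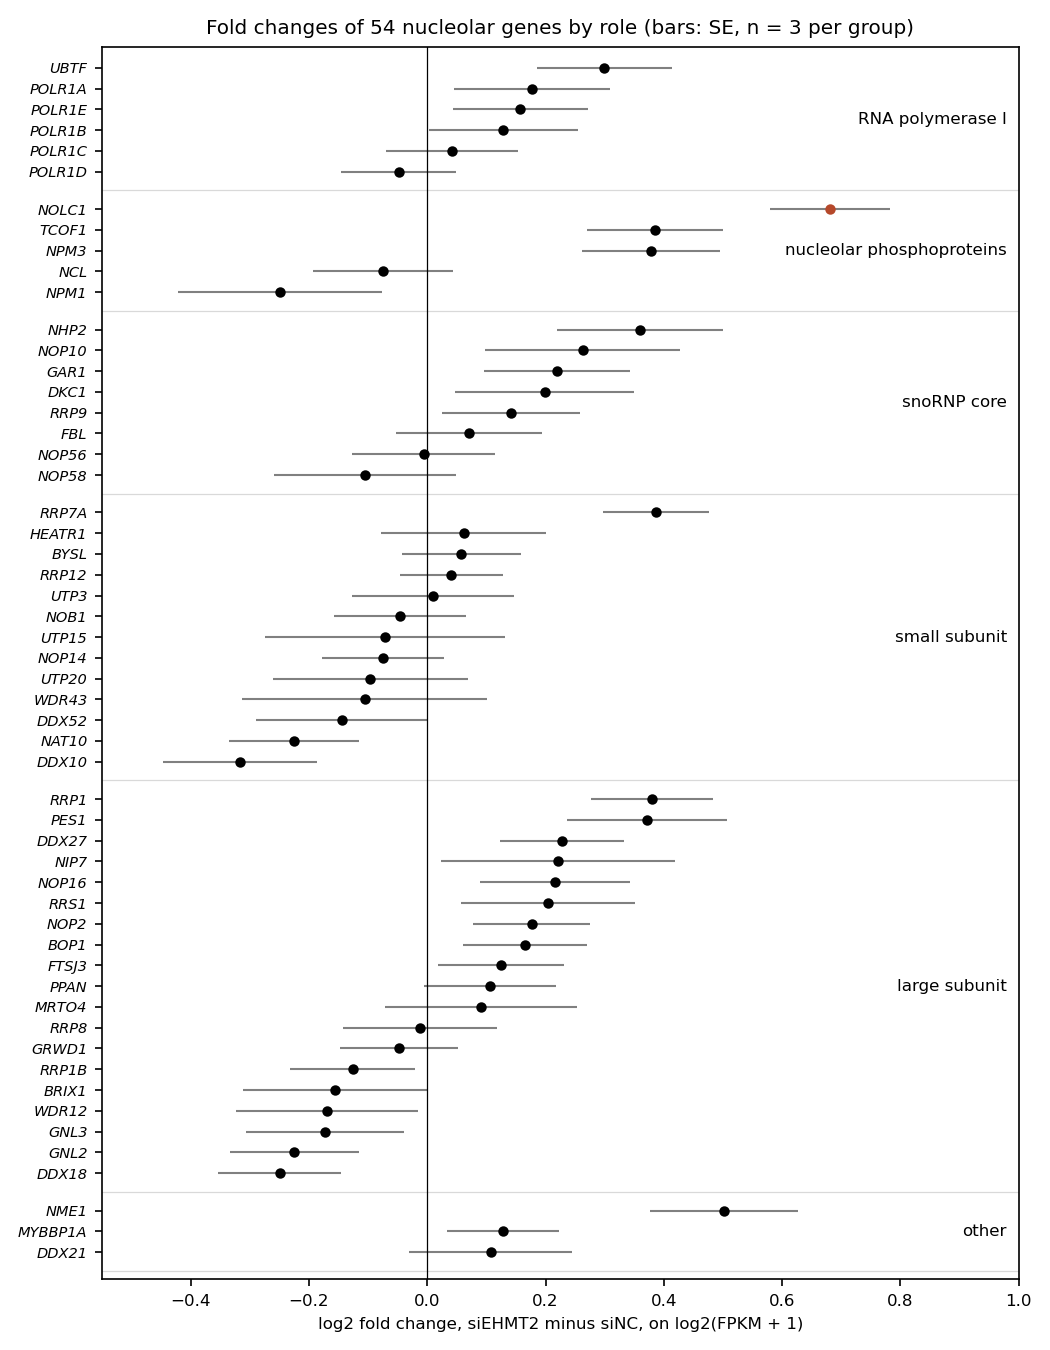
Log2 fold change of each of the 54 members, siEHMT2 minus siNC on the log2(FPKM + 1) scale (horizontal axis), with members grouped by role down the page. Points are estimates from 3 libraries per group, bars are SEs and the coloured point is NOLC1, at 0.68, the farthest of all members from 0.

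RNA polymerase I is the enzyme that transcribes the ribosomal precursor RNA, and UBTF binds the ribosomal DNA and keeps it accessible to the enzyme. Of these 6 genes, 5 were higher and POLR1D lower, with a median log2 fold change of 0.14. With libraries scaled to the same sum of tested genes, 4 were higher and 2 lower, since POLR1C changed sign. UBTF held 48.0, 51.5 and 43.5 FPKM in siEHMT2 libraries, against 36.5, 35.6 and 43.8 FPKM in siNC libraries. Its groups overlapped only because siNC replicate 3 lay just above siEHMT2 replicate 3, and its log2 fold change was 0.30 ± 0.11 (SE, n = 3 per group).

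Of the subunits listed, 3 are specific to this enzyme. POLR1A, the largest subunit, held 13.7, 18.9 and 14.9 FPKM in siEHMT2 libraries, against 12.9, 15.2 and 13.3 FPKM in siNC libraries. POLR1B, the second largest, held 13.7, 14.8 and 11.6 FPKM in siEHMT2 libraries, against 12.8, 13.1 and 10.5 FPKM in siNC libraries. For both genes the groups overlapped and replicate 2 was the highest library of each group. POLR1E, an enzyme-specific subunit, held 13.2, 15.0 and 14.04 FPKM in siEHMT2 libraries, against 12.9, 10.9 and 13.95 FPKM in siNC libraries. Their log2 fold changes were 0.18 ± 0.13, 0.13 ± 0.13 and 0.16 ± 0.11 for POLR1A, POLR1B and POLR1E.

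POLR1C and POLR1D are shared with RNA polymerase III. POLR1C held 16.7, 14.6 and 18.0 FPKM in siEHMT2 libraries, against 16.1, 14.4 and 17.2 FPKM in siNC libraries. POLR1D held 20.1, 17.9 and 20.6 FPKM in siEHMT2 libraries, against 21.0, 18.9 and 20.6 FPKM in siNC libraries. In both genes replicate 2 was the lowest library of each group, and the log2 fold changes of 0.04 ± 0.11 and −0.05 ± 0.10 were smaller than their SEs. The groups of both shared subunits overlapped.

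Among the nucleolar phosphoproteins and chaperones, 3 of 5 genes were higher in siEHMT2 libraries with no overlap between groups, as were 14.6% of all tested genes, and the most abundant pair was lower. NOLC1 encodes a serine-rich protein that shuttles between nucleolus and Cajal bodies and binds snoRNPs and RNA polymerase I. It held 59.3, 62.3 and 50.9 FPKM in siEHMT2 libraries, against 35.3, 35.3 and 35.6 FPKM in siNC libraries. Every siEHMT2 library lay well above the siNC libraries, which were nearly equal to each other. The mean was 57.5 ± 5.90 FPKM in siEHMT2 libraries and 35.4 ± 0.168 FPKM in siNC libraries (SD, n = 3 each), and the log2 fold change was 0.68 ± 0.10 (SE). It stayed between 0.62 and 0.76 when any single library was left out.

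TCOF1 encodes treacle, a relative of NOLC1 that recruits RNA polymerase I factors and is mutated in Treacher Collins syndrome. It held 12.4, 14.2 and 15.6 FPKM in siEHMT2 libraries, against 11.02, 11.1 and 9.51 FPKM in siNC libraries. NPM3, a histone chaperone of the nucleoplasmin family, held 30.3, 28.0 and 32.9 FPKM in siEHMT2 libraries, against 24.3, 19.999 and 25.3 FPKM in siNC libraries. Neither gene's groups overlapped, and the log2 fold changes were 0.38 ± 0.12 for TCOF1 and 0.38 ± 0.12 for NPM3 (SE, n = 3 per group). NPM1, its abundant relative, held 260.5, 204.6 and 184 FPKM in siEHMT2 libraries, against 230.5, 227 and 316 FPKM in siNC libraries. Its groups overlapped widely, siNC replicate 3 being the highest and siEHMT2 replicate 3 the lowest library of all, and its log2 fold change of −0.25 ± 0.17 ran against that of NPM3. Without both libraries numbered 3 the sign of the NPM1 value turned. NCL lay between 164 and 187 FPKM in siEHMT2 libraries and between 167 and 211 FPKM in siNC libraries, with a log2 fold change of −0.08 ± 0.12 that turned sign without siNC replicate 3.

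**Figure D2:**
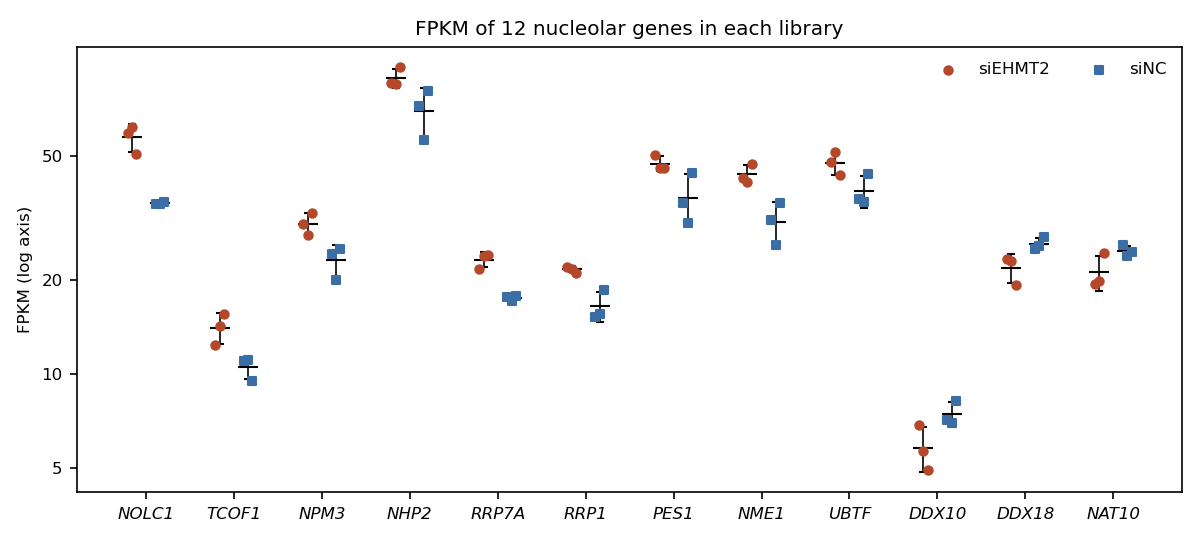
FPKM (vertical log axis) of 12 members in each siEHMT2 library (circles, left of each gene) and siNC library (squares, right), with the mean and SD (n = 3) as black lines. For NOLC1 the siEHMT2 libraries sit between 50.9 and 62.3 FPKM, all above the siNC libraries at 35.3 to 35.6 FPKM.

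Of the 8 core proteins of snoRNPs, 6 had a log2 fold change above 0, with a median of 0.17. All 4 box H/ACA proteins were higher in siEHMT2 libraries, and stayed so under each of the 3 scalings and without any single library. NHP2, which binds the RNA of these particles, held 86.3, 85.5 and 96.7 FPKM in siEHMT2 libraries, against 72.7, 56.4 and 81.4 FPKM in siNC libraries, with no overlap. Its log2 fold change was 0.36 ± 0.14 (SE, n = 3 per group). DKC1, the pseudouridine synthase dyskerin, was at 63.0 ± 8.04 FPKM in siEHMT2 libraries and 55.1 ± 10.6 FPKM in siNC libraries (SD, n = 3 each), a log2 fold change of 0.20 ± 0.15. NOP10, a small structural subunit, ranged from 61.0 to 97.4 FPKM in siEHMT2 libraries and from 58.3 to 69.6 FPKM in siNC libraries, a log2 fold change of 0.26 ± 0.16. GAR1, which helps the particle release its substrate, ranged from 16.5 to 17.4 FPKM in siEHMT2 libraries and from 12.02 to 16.7 FPKM in siNC libraries, a log2 fold change of 0.22 ± 0.12. For DKC1, NOP10 and GAR1 the groups overlapped.

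The box C/D proteins had both signs. FBL, the methyltransferase fibrillarin and on average the most abundant of the 8 genes, held 95.7, 84.3 and 98.03 FPKM in siEHMT2 libraries, against 85.6, 77.9 and 102 FPKM in siNC libraries. NOP58, a scaffold protein of the same particle, held 56.0, 52.8 and 41.9 FPKM in siEHMT2 libraries, against 50.02, 47.2 and 65.7 FPKM in siNC libraries. NOP56, the other scaffold, ranged from 74.7 to 83.8 FPKM in siEHMT2 libraries and from 71.7 to 94.3 FPKM in siNC libraries. In all 3 genes siNC replicate 3 was the highest siNC library, and the groups overlapped. The log2 fold changes of FBL, NOP58 and NOP56 were 0.07 ± 0.12, −0.11 ± 0.15 and −0.01 ± 0.12, and each turned sign without 1 of the libraries. RRP9, a protein of the U3 particle, was at 0.14 ± 0.12. The difference between box H/ACA and box C/D proteins was not tested.

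Of the 13 factors of the small subunit, 5 had a log2 fold change above 0 and 8 below 0, with a median of −0.07. The sign of this median turned with single libraries: it was 0.02 without siEHMT2 replicate 3, 0.03 without siNC replicate 3 and 0.07 without both. With libraries scaled to the same sum of tested genes, 3 of 13 were above 0, since UTP3 and RRP12 changed sign. RRP7A, a component of the small subunit processome, stood apart from the other 12. It held 21.8, 24.0 and 24.1 FPKM in siEHMT2 libraries, against 17.7, 17.2 and 17.9 FPKM in siNC libraries. All siEHMT2 libraries lay above all siNC libraries, and the log2 fold change was 0.39 ± 0.09 (SE, n = 3 per group). Its pseudogene RRP7B is a close copy, and reads may have been divided between them. When both rows were added, a step decided on with the values known, the log2 fold change was 0.36 ± 0.10.

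DDX10, an RNA helicase of early processing, was the lowest of the 13 by fold change. It held 6.84, 5.64 and 4.93 FPKM in siEHMT2 libraries, against 7.13, 6.97 and 8.20 FPKM in siNC libraries. The groups did not overlap, although siEHMT2 replicate 1 lay close under siNC replicate 2, and the log2 fold change was −0.32 ± 0.13. NAT10, the RNA acetyltransferase of the nucleolus, was at 21.2 ± 2.75 FPKM in siEHMT2 libraries and 24.9 ± 0.988 FPKM in siNC libraries (SD, n = 3 each), a log2 fold change of −0.23 ± 0.11. Its siEHMT2 replicate 3, at 24.4 FPKM, lay within the siNC range, while replicates 1 and 2 lay below it. DDX52, another helicase, was at −0.14 ± 0.15.

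The remaining small subunit genes differed by less than their SEs. WDR43, which binds the nascent precursor and had the highest mean level of the group, held 36.6, 33.7 and 21.3 FPKM in siEHMT2 libraries, against 28.4, 29.4 and 39.6 FPKM in siNC libraries. Within siEHMT2 its replicate 3 was the low library, and within siNC its replicate 3 was the high one. UTP20, a scaffold protein, and UTP15 were low in the same library, at 10.7 and 2.56 FPKM in siEHMT2 replicate 3. HEATR1, NOP14, BYSL, NOB1, RRP12 and UTP3 had log2 fold changes between −0.07 and 0.06.

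Factors of the large subunit were split, with 11 of 19 above 0, a median of 0.11 and a range of −0.25 to 0.38. The count was also 11 of 19 under each of the 3 scalings, while after GC correction 9 of 19 were above 0, with a median of −0.002. RRP1, whose yeast counterpart is needed to process the large subunit precursor, held 22.1, 21.8 and 21.2 FPKM in siEHMT2 libraries, against 15.3, 15.6 and 18.6 FPKM in siNC libraries. The siEHMT2 libraries lay close together and above all siNC libraries, and the log2 fold change was 0.38 ± 0.10 (SE, n = 3 per group). Its paralogue RRP1B was at 27.5 ± 3.36 FPKM in siEHMT2 libraries and 30.02 ± 0.513 FPKM in siNC libraries (SD, n = 3 each), a log2 fold change of −0.13 ± 0.11.

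PES1, BOP1 and WDR12 form one complex that the large subunit needs to mature. PES1 held 50.4, 46.0 and 45.9 FPKM in siEHMT2 libraries, against 35.5, 30.7 and 44.3 FPKM in siNC libraries. The groups did not overlap, although siNC replicate 3 came close under the siEHMT2 libraries. Its log2 fold change was 0.37 ± 0.14, while BOP1 was at 0.17 ± 0.11 and WDR12 at −0.17 ± 0.15. The members of this complex therefore had values on both sides of 0. Without both libraries numbered 3 the sign of WDR12 turned.

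The helicases and GTPases of the large subunit included both directions. DDX18, a helicase, held 23.4, 23.1 and 19.3 FPKM in siEHMT2 libraries, against 25.2, 25.9 and 27.5 FPKM in siNC libraries. All its siEHMT2 libraries were below all siNC libraries, with a log2 fold change of −0.25 ± 0.10. GNL2, a nucleolar GTPase, ranged from 16.8 to 20.1 FPKM in siEHMT2 libraries and from 20.4 to 24.2 FPKM in siNC libraries, also without overlap, a log2 fold change of −0.22 ± 0.11. Its relative GNL3, known as nucleostemin, was at −0.17 ± 0.13 with overlapping groups. DDX27, by contrast, ranged from 18.8 to 22.8 FPKM in siEHMT2 libraries and from 16.1 to 18.1 FPKM in siNC libraries, without overlap, a log2 fold change of 0.23 ± 0.10. NOP2, a methyltransferase of the large ribosomal RNA, also had groups that did not overlap, at 44.0 ± 4.10 FPKM in siEHMT2 libraries and 38.8 ± 1.38 FPKM in siNC libraries (SD, n = 3 each).

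MRTO4, which places a protein of the ribosomal stalk and had the highest mean level of the 19, held 68.6, 62.1 and 52.8 FPKM in siEHMT2 libraries, against 50.5, 50.5 and 72.7 FPKM in siNC libraries. The groups overlapped because siNC replicate 3 was the highest library of all. NIP7, NOP16, RRS1, FTSJ3 and PPAN were between 0.11 and 0.22, and RRP8, GRWD1 and BRIX1 between −0.16 and −0.01.

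PPAN is uncertain, since it shares exons with the readthrough gene PPAN-P2RY11. PPAN alone held 17.9, 20.9 and 22.7 FPKM in siEHMT2 libraries, against 19.3, 17.5 and 19.96 FPKM in siNC libraries, a log2 fold change of 0.11 ± 0.11. The readthrough row held 2.18, 0.705 and 1.12 FPKM in siEHMT2 libraries, against 6.03, 4.68 and 10.7 FPKM in siNC libraries. Every siEHMT2 library was lower for that row, with a log2 fold change of −1.78 ± 0.30 (SE) and a limma adjusted p of 0.0479. The sum of both rows was 20.1, 21.6 and 23.8 FPKM in siEHMT2 libraries, against 25.3, 22.2 and 30.7 FPKM in siNC libraries. The log2 fold change of this sum was −0.24 ± 0.13, of the other sign than that of PPAN alone. PPAN alone was at −0.002 after GC correction. P2RY11, the downstream gene of the readthrough, held 13.0, 13.8 and 12.02 FPKM in siEHMT2 libraries, against 5.91, 9.78 and 7.97 FPKM in siNC libraries, with a limma adjusted p of 0.0878. How reads of the shared exons were divided among these rows was not tested. The sum of PPAN and the readthrough row, too, was decided on with the values known.

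Of the 3 genes listed outside these roles, NME1 had the widest difference. NME1 encodes a nucleoside diphosphate kinase and is a known MYC target rather than a ribosome assembly factor. It held 42.7, 41.5 and 47.4 FPKM in siEHMT2 libraries, against 31.2, 25.98 and 35.4 FPKM in siNC libraries. All siEHMT2 libraries were higher, with a log2 fold change of 0.50 ± 0.13 (SE, n = 3 per group). NME1 overlaps the readthrough gene NME1-NME2, and their sum had a log2 fold change of 0.43 ± 0.16. DDX21, a helicase linked to RNA polymerase I transcription, held 57.6, 57.3 and 41.4 FPKM in siEHMT2 libraries, against 45.2, 47.4 and 50.8 FPKM in siNC libraries. Its siEHMT2 replicate 3 lay below all siNC libraries and the other siEHMT2 libraries above them. MYBBP1A, a nucleolar regulator of transcription, was at 39.8 ± 3.02 FPKM in siEHMT2 libraries and 36.3 ± 1.21 FPKM in siNC libraries (SD, n = 3 each), a log2 fold change of 0.13 ± 0.09.

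The order of the libraries within a group was not used to draw up the list. Among siNC libraries, replicate 3 was the highest for 43 of 54 members (79.6%), against 42.0% of all tested genes. Replicate 2 was the lowest for 35 members (64.8%), against 37.7% of all tested genes. The median deviation of the members from their siNC mean was 0.14 in replicate 3, −0.10 in replicate 2 and −0.03 in replicate 1 on the log2(FPKM + 1) scale. Over all tested genes it was within 0.02 of 0 in each library. Among siEHMT2 libraries, replicate 1 was the highest for 25 members (46.3%, against 30.8% of tested genes) and replicate 3 the lowest for 28 (51.9%, against 42.2%). The members share these libraries and are not replicates, so the shares are given without a test.

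**Figure D3:**
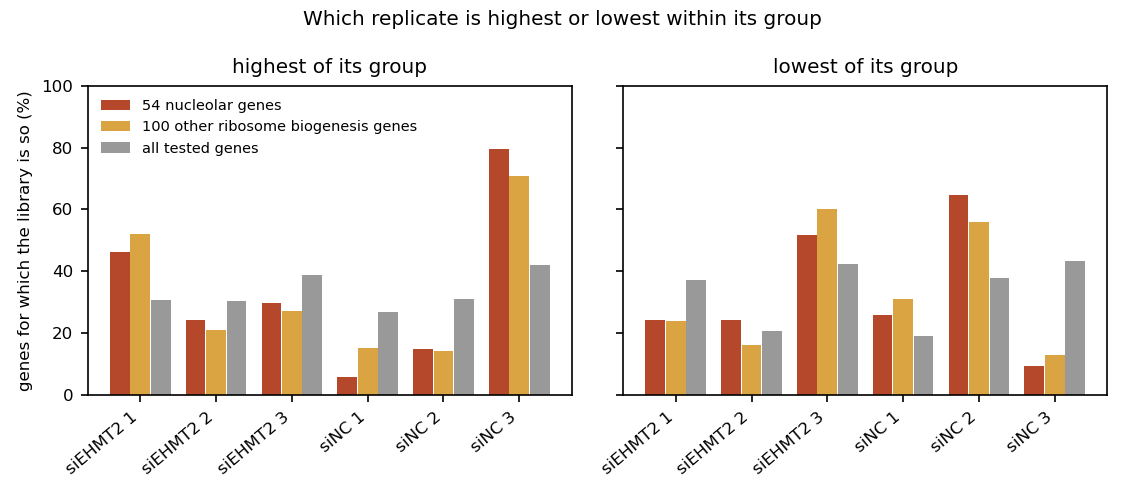
Share of genes (vertical axis, %) for which each replicate was the highest (left) or the lowest (right) library of its group, for the 54 members, for 100 other ribosome biogenesis genes and for all tested genes. siNC replicate 3 was the highest siNC library for 79.6% of the members and 71.0% of the other ribosome biogenesis genes, against 42.0% of all tested genes.

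**Figure D4:**
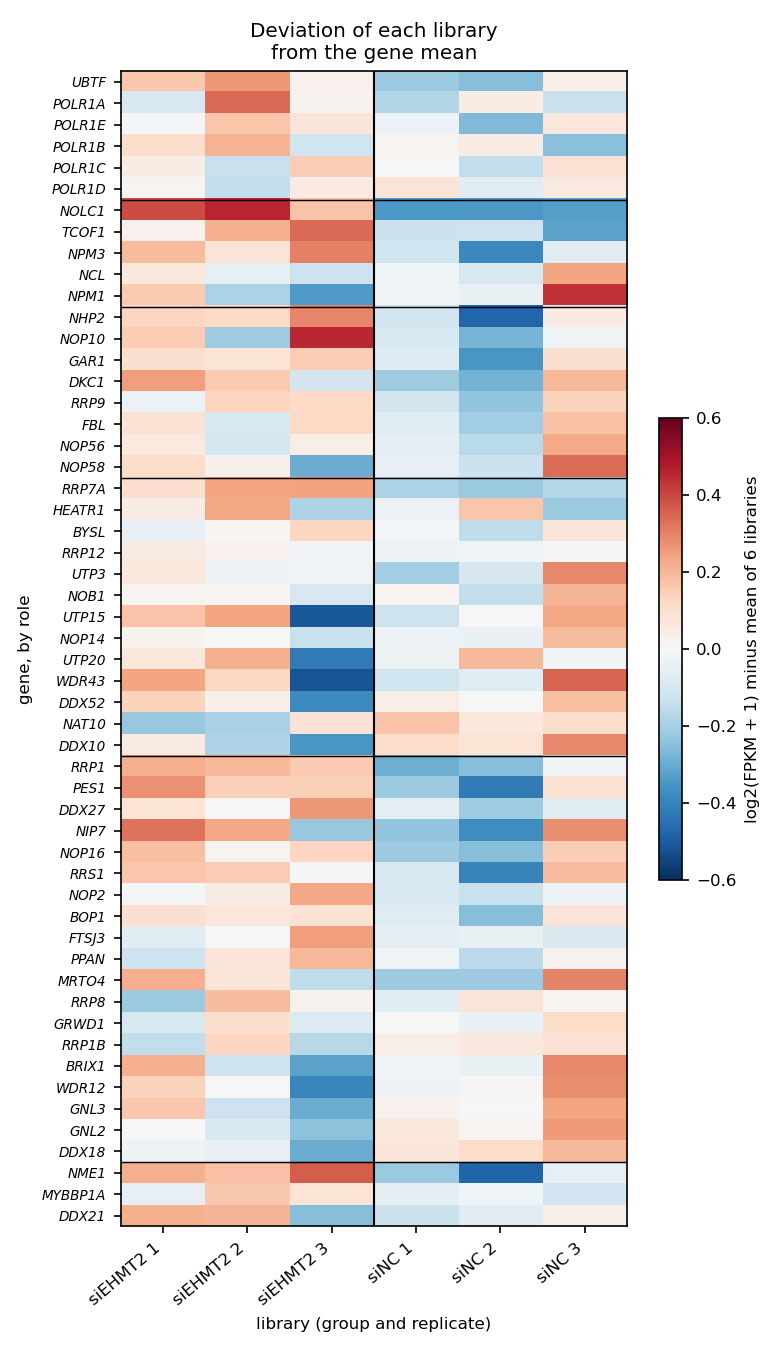
Deviation of each library from the mean of the 6 libraries on the log2(FPKM + 1) scale (colour, red above and blue below), for the 54 members by role (rows), with siEHMT2 libraries left and siNC libraries right of the black line. NOLC1 is high in all siEHMT2 libraries, while most other rows show siNC 3 above siNC 1 and siNC 2.

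Fold changes of the members followed the GC content of their transcripts, taken as the median over all annotated transcripts of a gene. Across the 54 members the Spearman rho of fold change with GC was 0.55, against 0.39 across 11731 tested genes with a GC value. Genes are not independent here, since all points come from the same 6 libraries. Of the 28 members with GC above the median of tested genes (50.2%), 21 were higher in siEHMT2 libraries (75%). Their median log2 fold change was 0.13. Among all tested genes above that median GC, 68.2% were higher, with a median fold change of 0.10. Of the 26 members at or under that median GC, 12 were higher (46.2%), with a median of −0.06. Among all such tested genes the values were 36.2% and −0.07. In siEHMT2 replicate 3 the deviation of the members from their group mean had a rho of 0.63 with GC, against 0.47 over all tested genes. In siEHMT2 replicate 1 the rho was −0.66 for the members, against −0.45. In siNC libraries it was between −0.14 and 0.37 for the members, against −0.15 to 0.18 over all tested genes. After a loess correction for GC in each library, 30 of 54 members were above 0, against 5986 of 11731 genes with a GC value. The median was 0.02 over the members and 0.005 over those 11731 genes. NOLC1 was unmoved at 0.68 and NME1 was at 0.48, while TCOF1, NPM3, NHP2, RRP7A, RRP1 and PES1 were between 0.27 and 0.29. The part of GC content in the remaining differences was not tested.

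**Figure D5:**
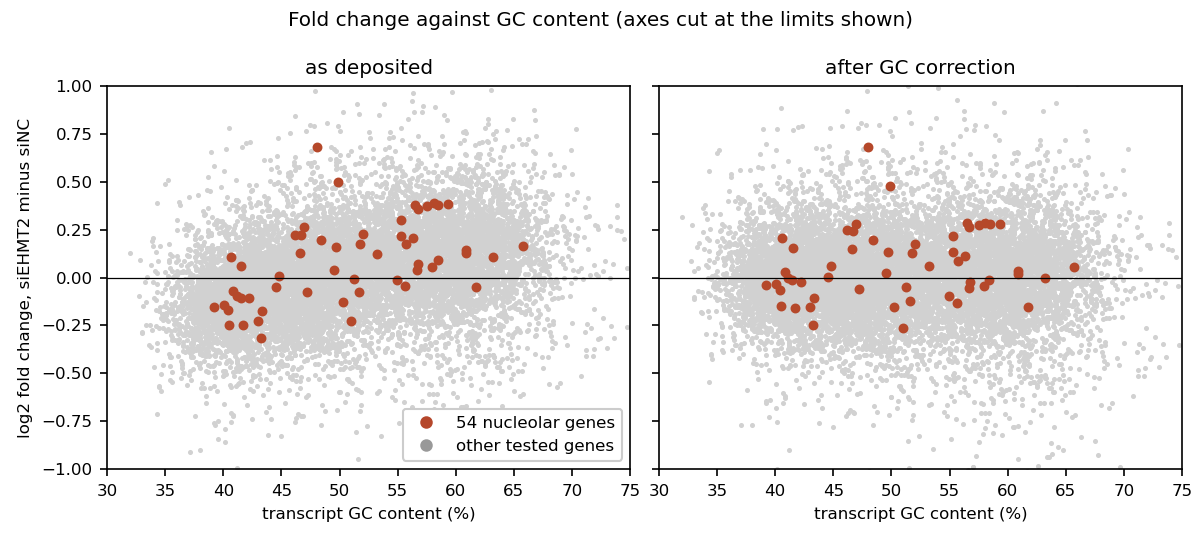
Log2 fold change, siEHMT2 minus siNC (vertical axis), against transcript GC content (horizontal axis, %) for the 54 members and the other tested genes, as deposited (left) and after GC correction per library (right); points outside the axis limits are not shown. The Spearman rho over the members was 0.55 as deposited and 0.21 after the correction, with NOLC1 at 0.68 in both.

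Other genes of the pathway were set beside the members. Of 101 further ribosome biogenesis genes, 100 were found in the table and all of them were tested. Of these, 54 were above 0, with a median of 0.02, against 52.4% and a median of 0.01 over all tested genes. In limma 0 of 100 passed the adjusted threshold, while 21 had an unadjusted p under 0.05, against 18.8% of all tested genes. Separate groups were found in 22 with higher siEHMT2 values, against 14.6% of all tested genes, and in 11 with lower values, against 11.7%. DHX37, a helicase that releases the U3 particle, had the smallest p. It held 19.3, 19.6 and 19.1 FPKM in siEHMT2 libraries, against 13.6, 13.9 and 13.5 FPKM in siNC libraries, with a limma adjusted p of 0.0554. NOC2L, a large subunit factor, held 55.7, 57.0 and 61.4 FPKM in siEHMT2 libraries, against 42.9, 40.4 and 43.8 FPKM in siNC libraries, with a limma adjusted p of 0.0688. In both, all siEHMT2 libraries lay above all siNC libraries, with log2 fold changes of 0.47 ± 0.09 and 0.44 ± 0.09 (SE).

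MYC itself held 84.3, 80.01 and 78.3 FPKM in siEHMT2 libraries, against 93.0, 85.5 and 93.9 FPKM in siNC libraries. All siEHMT2 libraries lay below all siNC libraries, while its log2 fold change of −0.16 ± 0.09 did not pass (limma adjusted p = 0.368). MAX held 9.47, 8.76 and 9.81 FPKM in siEHMT2 libraries, against 7.46, 7.497 and 7.33 FPKM in siNC libraries. Its siEHMT2 libraries were all higher, and the log2 fold change of 0.30 ± 0.09 did not pass either (limma adjusted p = 0.154). The groups of MYCN, MYCL and MNT overlapped, with log2 fold changes of −0.36 ± 0.16, −0.04 ± 0.14 and 0.19 ± 0.11. For MYCN the limma adjusted p was 0.262. MXD1 did not exceed 0.226 FPKM and was not tested. Rows of 17 snoRNAs that lie in introns of members did not exceed 9.49 FPKM, the value of SNORD19, in GNL3, in siEHMT2 replicate 3. These RNAs are 68 to 137 bases long. How well the libraries captured RNAs so short was not tested, so the values are not read as snoRNA levels.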

How the data were processed

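Total RNA libraries of SK-NEP-1 cells, 3 siEHMT2 and 3 siNC, were compared. Groups and replicate numbers came from the sample titles. Where the cell line label numbers the line differently, the titles were followed. The deposited values are FPKM per gene and library, per the file headers. The build in the submitters' processing notes is hg19. Those notes also list StringTie 2.2.0, HISAT2 2.2.1, fastp and SAMtools 1.4.1, without roles. The annotation, strand setting and the rule by which transcripts were combined per gene are not given in the sources used here. FPKM is relative to each library's total, so a few abundant genes can shift all others. There were 0 pairs of libraries with identical columns.

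The test was limma 3.58.1 (R 4.3.3) on log2(FPKM + 1), for rows averaging 1 FPKM or more, with a mean-variance trend, without covariates, two-sided, with Benjamini-Hochberg adjustment over all 12859 tested rows. Fold changes of low genes are understated on this scale. A check on simulated data drew noise independently for each gene and library. It therefore cannot speak to shifts that many genes share within a library. Transcript GC came from GENCODE release 29 (91.2% of tested rows), promoters from RefSeq (GRCh38.p14). The GC of a gene is the median over all its annotated transcripts, whichever of them is expressed. No coordinate of the table's build was used. Members, roles and lists were chosen with earlier results of these data known. All 54 members may be named. Values per library are given for members past the threshold, for the highest and lowest fold change and highest level of each role, for members with separate groups and a log2 fold change of at least 0.3 in size, and for RNA polymerase I subunits. Figures were made with Python 3.11.15.

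Alternatives changed the scaling, the filter, the pseudocount or the trend, added GC correction, a replicate block or array weights, kept protein-coding genes alone, or left out libraries. Sums with overlapping rows were added after the data were seen. A marker gene of the kidney list is not reported here.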

Additional observations from a re-analysis of the deposited data

How the results depend on the processing

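NOLC1 kept a log2 fold change of 0.62 to 0.77 under 20 other settings, a description of the value the list was built on. Its limma adjusted p was under 0.05 in 10 of these 20 settings and reached 0.255. The members called, against all genes called, were 0 and 0 with all rows kept, 0 and 31 with libraries scaled to the same sum, 0 and 30 without the trend, and 13 and 2936 with array weights. Without both libraries numbered 3 they were 11 and 1890. As shares, these were 24.1% of members and 22.8% of tested genes with array weights. They were 20.4% and 14.7% without both libraries numbered 3. All genes called were 134 at a mean of at least 5 FPKM and 216 among protein-coding genes. Leaving out 1 library gave 0 to 1 members and 0 to 172 genes called. Dropping siEHMT2 replicates 1, 2 and 3 in turn left 5, 0 and 172 genes called, and dropping siNC replicates 1, 2 and 3 left 0, 1 and 4. Same-numbered deviations from the group means correlated at −0.35, 0.09 and −0.39, and those of different number at −0.37 to 0.48. Deviations within a group are tied to each other, so these values cannot decide whether replicate numbers pair the libraries. With the replicate block, 0 members and 0 genes were called, also with the block and the GC correction, where 1845 and 1598 genes had an unadjusted p under 0.05. Where 0 genes were called with all rows kept, 3641 had one, and 1658 and 1526 had one when siEHMT2 replicate 2 or siNC replicate 1 was dropped.

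The members' median of 0.08 moved by over 1.5 times to 0.02 after GC correction, 0.03 with the same sum, 0.04 with the same sum and no mitochondrial transcripts, 0.05 without siNC replicate 2, 0.13 without both libraries numbered 3 and 0.14 with array weights. Single members are less certain, since 24 of 54 took the other sign under at least 1 of these settings and 30 under none. The small subunit median of −0.07 became 0.02 when siEHMT2 replicate 3 was dropped, 0.03 when siNC replicate 3 was, 0.07 without both and 0.05 with array weights. The large subunit median of 0.11 became 0.03 without siEHMT2 replicate 3, 0.05 without siNC replicate 2 and −0.002 after GC correction. The snoRNP median of 0.17 became 0.08 without siNC replicate 2, 0.28 without siNC replicate 3 and 0.11 without siEHMT2 replicate 3. The causes were not tested. Summing rows of 1 symbol was not run, because no symbol has more than 1 row.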
